A study of Homo sapiens with 6 samples.

Results

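The genes described here are those of the human NADH:ubiquinone oxidoreductase, respiratory complex I, that are encoded in the nucleus. They were taken from a table of RNA levels as the protein-coding genes whose symbol begins with NDUFA, NDUFB, NDUFC, NDUFS or NDUFV, leaving out the NDUFAF assembly factors and pseudogenes. The rule gave 39 of the 29810 genes in the table. Of these, 37 are complex I subunits. The other two carry the name only: NDUFA4 is now known as a subunit of complex IV, and NDUFA4L2 is its relative. A further gene that the rule names in the annotation, the readthrough gene NDUFC2-KCTD14, was not analysed here.

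The cells were Kasumi-1, an established line of human myeloblasts from acute myeloid leukaemia that carries the RUNX1-RUNX1T1 fusion. In the 3 I1 libraries the cells had been kept with I1, which the labels name by this code alone, at 0.125 µM for 48 h. In the 3 control libraries the cells had been kept with control, also for 48 h. All came from the same line. No label says that the samples of a group were separate cultures, so the p-values measure how far these samples scatter, and that scatter may be technical.

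Complex I takes electrons from NADH, passes them along a flavin and a chain of iron-sulfur clusters to ubiquinone, and pumps protons across the inner mitochondrial membrane. The N module oxidises NADH, the Q module reduces ubiquinone, and the P module, with a proximal and a distal part in the membrane, moves protons. The core subunits, which bacteria also have, do the chemistry, and the accessory subunits around them hold the complex together. Myeloid leukaemia cells are known for a strong reliance on mitochondrial respiration, which makes these genes of interest in a line such as Kasumi-1.

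Levels are given as FPKM, the fragments counted for each kilobase of a gene, set against the total of its library. The length that gave back whole reads was that of all annotated exons of a gene merged. It can exceed the length of the transcript that the cells make, so comparisons of level between genes depend on the annotation. The library totals behind them lay between 16391000 and 16948000 fragments with I1 and between 17331000 and 18204000 with control. A single read over 1 kb was worth 0.0549 to 0.0610 FPKM. All 9 markers fixed for Kasumi-1 and its myeloblast stage reached 1 FPKM in all 6 libraries, with a summed level of 13167 to 14983 FPKM with I1 and of 14332 to 19608 FPKM with control. Of the marker lists for other cell types, the 3 mature neutrophil markers in the table summed to 53.9 to 93.3 FPKM with I1 and 63.7 to 114 FPKM with control, nearly all of it CSF3R. The 3 epithelial markers summed to 26.7 to 31.3 FPKM with I1 and 23.2 to 27.6 FPKM with control, nearly all of it EPCAM, and the 4 monocyte markers to 11.2 to 16.7 FPKM with I1 and 13.4 to 23.0 FPKM with control, with CD14 near 0. The erythroid, T cell, B cell and fibroblast lists each summed to at most 2.10 FPKM with I1 and 1.73 FPKM with control. The part of other cell types in the results was not tested. Control replicate 1 stood apart over all genes: its mean correlation with the other libraries was 0.948, against 0.966 to 0.973 for the remaining libraries.

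Promoters of these genes are known for sites of nuclear respiratory factor 1 (NRF1), of ETS factors such as GABPA, of YY1 and of SP1, and 3 of them are shown to let the reader see such letters. The sequences are from RefSeq on GRCh38.p14, each the 120 bases upstream of the annotated start, read 5′ to 3′ on the gene's strand. Capitals mark matches, on either strand, to the NRF1 core TGCGCA, the ETS core CCGGAAG and the SP1 box GGGCGG. In the NDUFS3 window an SP1 match and an ETS match overlap. The windows lie at chr11:47578954-47579073 on the plus strand (NDUFS3), chr5:1801287-1801406 on the plus strand (NDUFS6) and chr9:122159780-122159899 on the minus strand (NDUFA8).
NDUFS3: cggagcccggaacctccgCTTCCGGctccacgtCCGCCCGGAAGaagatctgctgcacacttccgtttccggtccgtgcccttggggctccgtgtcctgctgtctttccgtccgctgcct
NDUFS6: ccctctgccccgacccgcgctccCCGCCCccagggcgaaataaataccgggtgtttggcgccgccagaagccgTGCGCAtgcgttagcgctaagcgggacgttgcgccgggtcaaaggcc
NDUFA8: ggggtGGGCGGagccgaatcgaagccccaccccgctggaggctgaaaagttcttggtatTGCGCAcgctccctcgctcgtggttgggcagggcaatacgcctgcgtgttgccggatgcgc

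RefSeq windows of 250 bases before to 50 bases after the start were at hand for 32 of the 39 genes, 39 windows in all. The NRF1 core TGCGCA was in 28.2% of these windows and in 8.24% of the 35116 windows of all genes. The YY1 letters AAGATGGC were in 17.9% of the windows, among them those of NDUFA6, NDUFS4 and NDUFS7, against 2.89% of all windows. The SP1 box was in 66.7%, against 45.0% of all windows. For the ETS core the shares lay closer, at 12.8% of the windows of these genes and 10.3% of all windows. The complete NRF1 palindrome, which can overlap that core, was in the windows of NDUFA8 and NDUFB4, 5.13% of the windows against 1.24% of all. Such a match describes letters and shows no binding.

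The levels of the 39 genes spread widely in these cells, although their products meet in one complex. The mean over the 6 libraries was at least 10 FPKM for 21 genes, between 1 and 10 FPKM for 12 genes and under 1 FPKM for 6 genes. The highest mean was 961 times the lowest. The genes under 1 FPKM, with NDUFS7 the lowest, are all among those whose levels are uncertain for reasons given below. The 3 highest genes held 36.0% of the summed level of all 39.

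NDUFS5, an accessory subunit on the intermembrane-space face of the proximal P module, was the highest, with 133, 170 and 159 FPKM in the I1 libraries and 156, 178 and 168 FPKM in the control libraries. NDUFB7, a subunit of the distal P module on the same face of the membrane, came next, with 73.5, 98.8 and 90.6 FPKM with I1 and 103, 112 and 91.1 FPKM with control. NDUFB11, an X-linked subunit of the distal P module, had 66.1, 78.9 and 74.9 FPKM with I1 and 71.8, 76.6 and 73.7 FPKM with control. In each of these genes the I1 and control libraries overlapped, and the 3 genes kept the same order in every library. Across the 39 genes a higher level went with a shorter exon length, with a Spearman rho of -0.59 between mean FPKM and exon length. FPKM is itself divided by length, so level and length are not independent measures here. The merged exon length was 548 bases in NDUFS5 and 10391 in NDUFA9, against 318 and 1419 coding bases. In I1 replicate 1 NDUFB11, with 1418 exon bases, had 1536 reads and NDUFS5 had 1196, though NDUFS5 was higher in FPKM. How far the annotated length sets the order of the genes was not tested. The rho is a description across genes, which share their libraries.

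**Figure D1:**
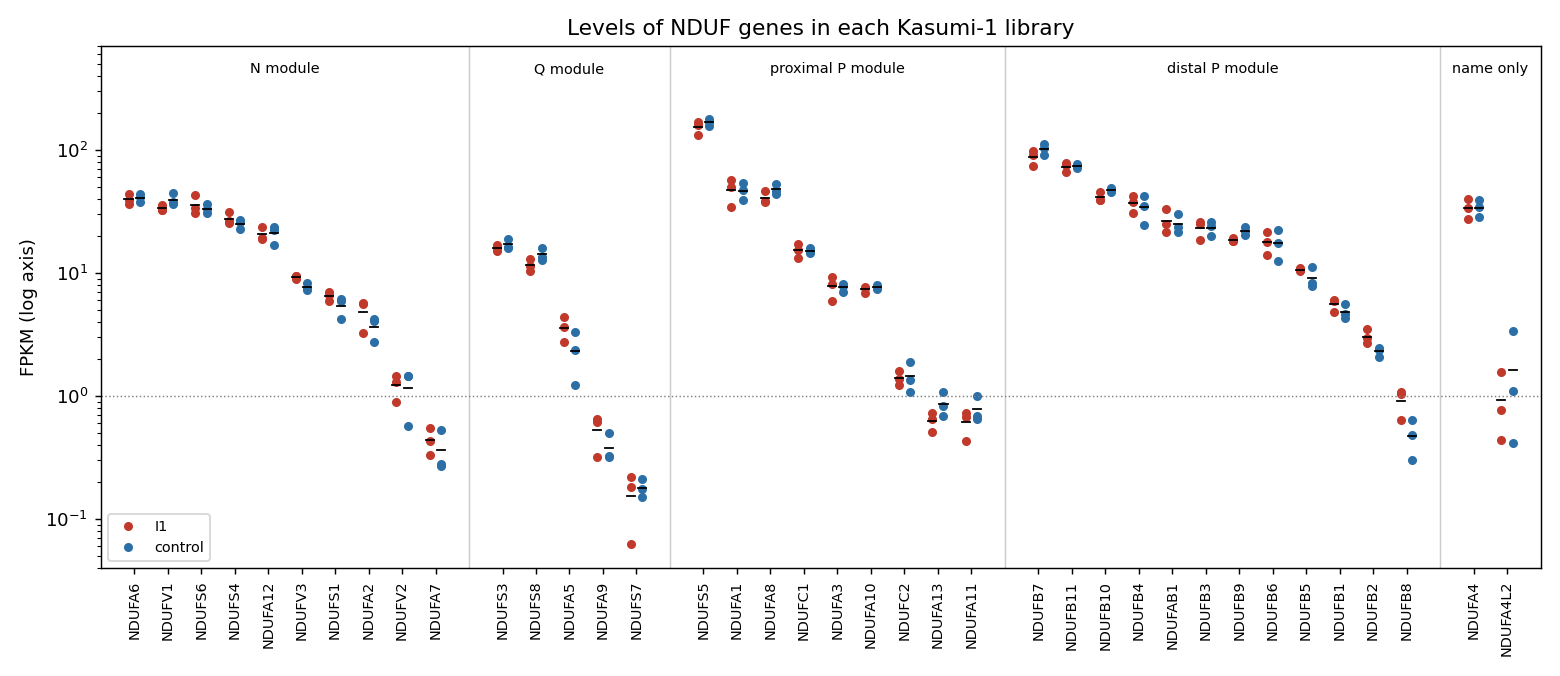
Level of the NDUF genes in the 6 libraries, in FPKM on a log axis. Dots are libraries, I1 in red left of control in blue, black bars are group means, the dotted line is 1 FPKM, and genes are sorted by mean within each module. Each module holds genes from above 10 FPKM to near or under 1 FPKM, and the I1 and control dots of most genes lie at like heights.

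The measured levels of the core subunits spread widely as well. NDUFV2 and NDUFS7, at the low end, are among the genes with uncertain levels. NDUFV1, which binds NADH and the flavin and is where electrons enter, had 35.9, 32.3 and 32.3 FPKM in the I1 libraries and 44.6, 37.7 and 36.2 FPKM in the control libraries. NDUFS1, which carries several iron-sulfur clusters of the N module, had 6.66, 6.98 and 5.88 FPKM with I1 and 4.25, 5.94 and 6.11 FPKM with control. NDUFV2, the partner of NDUFV1 and also a cluster carrier, had only 0.900, 1.31 and 1.46 FPKM with I1 and 0.567, 1.45 and 1.46 FPKM with control. For NDUFV1 all I1 libraries lay below all control libraries, while the libraries of NDUFS1 and of NDUFV2 overlapped.

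In the Q module, NDUFS3, a structural core subunit, had 15.1, 16.8 and 16.0 FPKM with I1 and 16.3, 18.9 and 16.0 FPKM with control. NDUFS8, which carries iron-sulfur clusters on the way to ubiquinone, had 11.5, 13.0 and 10.3 FPKM with I1 and 16.0, 13.6 and 12.8 FPKM with control. For both genes the I1 and control libraries overlapped. NDUFS7, which holds the last cluster before ubiquinone, was the lowest of all 39 genes, with 0.219, 0.0627 and 0.184 FPKM with I1 and 0.211, 0.176 and 0.150 FPKM with control. These values rest on 8 to 29 reads per library.

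Most of the low values belonged to genes whose exons share bases with another gene. In GENCODE release 29, 7 of the 39 genes have coding bases that lie under exons of another gene on the same strand. They are NDUFC2 (76.9% of coding bases), NDUFV2 (84.7%), NDUFA13 (55.2%), NDUFA11 (36.9%), NDUFB8 (85.2%), NDUFA9 (67.9%) and NDUFA7 (78.3%). The means of these 7 genes lay between 0.40 and 1.42 FPKM, with a median of 0.696 FPKM. The 32 other genes had a median of 20.6 FPKM, between 0.167 and 161 FPKM, and of them only NDUFS7 and NDUFA4L2 were at or under 1.42 FPKM.

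NDUFB8, a distal P-module subunit, had 1.07, 1.03 and 0.632 FPKM in the I1 libraries and 0.302, 0.635 and 0.481 FPKM in the control libraries. NDUFA9, an accessory subunit of the Q module, had 0.317, 0.619 and 0.648 FPKM with I1 and 0.322, 0.50 and 0.321 FPKM with control. NDUFA7, an accessory subunit of the N module, had 0.432, 0.334 and 0.553 FPKM with I1 and 0.272, 0.531 and 0.280 FPKM with control. The groups overlapped in each of these genes, in NDUFB8 through a single pair of nearly equal libraries. The partner genes on the same strand are annotated as protein-coding, apart from AP005263.1, a processed transcript. NDUFC2-KCTD14, AP005263.1, AC024592.3, AL133352.1 and AC005833.1 have no row in the table, so their levels are not known. Those found in the table were low as well: the partner of NDUFA13, AC011448.1, had a mean of 0.321 FPKM, and that of NDUFA7, AC010323.1, a mean of 0.0166 FPKM.

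A relation in the same direction was seen over all protein-coding genes of the table. Of the 14343 genes with under 10% of coding bases overlapped on the same strand, 35.5% had a mean under 1 FPKM. The share was 45.6% of the 906 genes with 10 to 90% overlapped and 77.7% of the 367 genes with over 90% overlapped. NDUFS7 has no same-strand overlap, but 48.5% of its coding bases lie under a gene on the other strand, as do 45.2% of those of NDUFB2. The sources used here do not say whether the authors counted by strand. How far the overlap sets these levels was not tested, and the levels of the 7 overlapped genes, of NDUFS7 and of NDUFB2 are therefore uncertain.

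**Figure D2:**
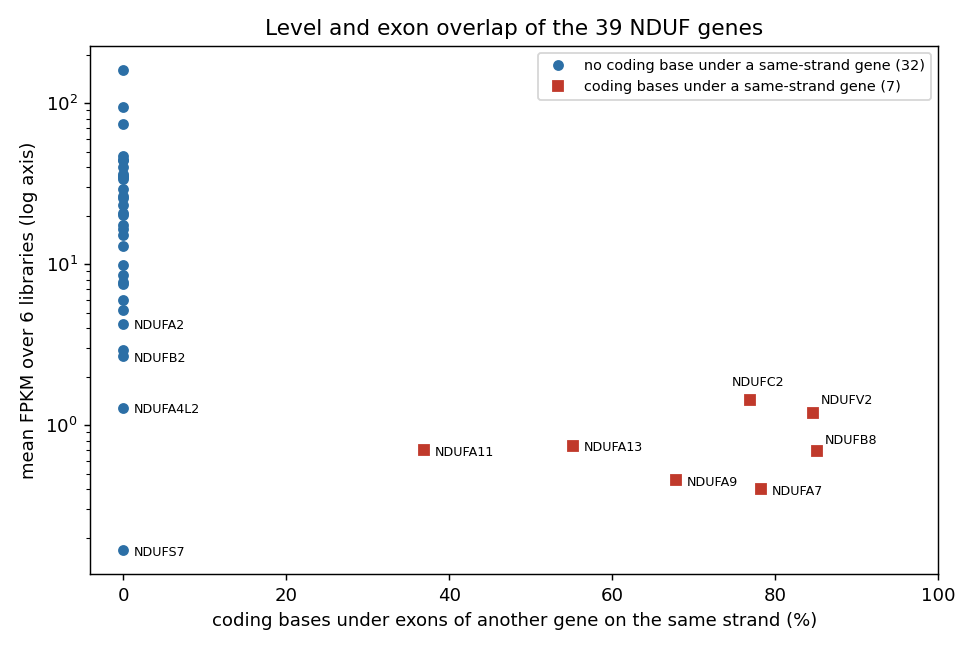
Mean FPKM over the 6 libraries on a log axis against the percentage of coding bases under exons of another gene on the same strand, 1 point per gene. The 7 genes with such overlap (red squares) lie between 0.40 and 1.42 FPKM, while the 32 genes without it (blue circles) have a median of 20.6 FPKM.

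The comparison of I1 with control asks whether the compound changed these RNAs. No gene of complex I passed the test. It was run on log2(FPKM + 1) with limma for the 11913 genes that reached 1 FPKM in 3 or more of the 6 libraries. A call needed a Benjamini-Hochberg adjusted p under 0.05 over all of them and a fold change of 2 or more in either direction. Over all genes, 4 were higher with I1, 0.0336% of those tested, and 0 were lower, 0% of those tested. Of the 39 genes 33 were tested, and 6 (NDUFA13, NDUFA11, NDUFB8, NDUFA9, NDUFA7 and NDUFS7) were below the filter. Of the 33, 0 were called in either direction, and the smallest adjusted p was 0.467.

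At an unadjusted p under 0.05 the count was also 0 of 33. Over all tested genes 6.8% were higher and 2.77% lower at that level. The fold changes were small: 28 of the 33 genes had a 95% interval that stayed within 0.6 of 0 on the log2 scale. The standard errors lay between 0.11 and 0.41. For most of these genes the data thus bound the difference on this scale, while a smaller difference could not be seen with 3 libraries a group. For genes near 1 FPKM the bound depends on the 1 added to FPKM. With 0.1 added instead, the standard error was 0.41 for NDUFV2 and 0.28 for NDUFC2, against 0.22 and 0.17. Both are among the 28. In bulk RNA, fewer cells with a transcript and less of it per cell cannot be told apart.

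The I1 libraries lay wholly above the control libraries for 2 of the 33 genes, where 12.9% of all tested genes did so, and wholly below for 3 of the 33, where 8.74% did so. These shares, 6.06% and 9.09%, are near or under the background. NDUFV3, an accessory subunit of the N module, had 9.51, 9.0 and 9.44 FPKM with I1 and 7.51, 8.27 and 7.30 FPKM with control. NDUFB2, a small membrane subunit of the distal P module, had 2.70, 3.49 and 2.94 FPKM with I1 and 2.09, 2.47 and 2.38 FPKM with control. Both stood higher in every I1 library than in any control library. The log2 fold change was 0.25 for NDUFV3 (SE 0.11, adjusted p = 0.467) and 0.29 for NDUFB2 (SE 0.14, adjusted p = 0.467) in the limma fit.

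Among the genes with the I1 libraries wholly below were NDUFV1 and NDUFB9. NDUFB9, an accessory subunit of the distal P module, had 18.3, 19.4 and 18.3 FPKM with I1 and 23.6, 21.8 and 20.4 FPKM with control. NDUFV1 averaged 33.5 ± 2.06 FPKM with I1 and 39.5 ± 4.52 FPKM with control (SD, n = 3 each). The log2 fold changes were -0.23 for NDUFV1 (SE 0.12) and -0.22 for NDUFB9 (SE 0.11), each with a limma adjusted p of 0.467. Neither was past the threshold.

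The highest fold change belonged to NDUFA5, an accessory subunit of the Q module, with 2.74, 4.38 and 3.62 FPKM in the I1 libraries and 1.22, 3.30 and 2.38 FPKM in the control libraries. The groups overlapped, and control replicate 1 was the lowest library. Its log2 fold change was 0.51 (SE 0.26, 95% interval -0.08 to 1.10, adjusted p = 0.467). Within the same-numbered pairs the difference on the log2 scale was 0.75, 0.32 and 0.45, higher with I1 in 3 of 3. Without control replicate 1 the adjusted p of all 32 genes then tested stayed at 0.747 or above, and the log2 fold change of NDUFA5 was 0.25 (adjusted p = 0.783), the lowest of its values with 1 library left out. With the replicate number as a block in limma the adjusted p of NDUFA5 was 0.140. It was 0.0438 when the block was used on protein-coding genes alone, a setting added after results were seen. In that setting 33.8% of all tested genes had an unadjusted p under 0.05. The fold change of NDUFA5 stayed under the 2 that a call needed.

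NDUFA2, an accessory subunit of the N module with a thioredoxin-like fold, had 3.28, 5.67 and 5.58 FPKM with I1 and 2.73, 4.19 and 4.07 FPKM with control. The groups overlapped, since I1 replicate 1 lay below 2 of the control libraries. The log2 fold change was 0.31 (SE 0.22, adjusted p = 0.509). At the other end, NDUFS8 had a log2 fold change of -0.26 (SE 0.14, adjusted p = 0.467), with I1 replicate 2 above control replicate 3.

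The 2 genes with the name only behaved differently from each other in their spread. NDUFA4, of complex IV, had 27.6, 39.7 and 33.8 FPKM with I1 and 28.4, 39.4 and 34.2 FPKM with control, nearly the same values in each pair. Its log2 fold change was -0.01 (SE 0.17, adjusted p = 0.971). NDUFA4L2, known as a gene induced in low oxygen that dampens complex I activity, had 1.57, 0.442 and 0.772 FPKM with I1 and 3.39, 0.411 and 1.09 FPKM with control. Control replicate 1 was far above the other controls, and the log2 fold change of -0.33 (SE 0.41, adjusted p = 0.687) was the lowest of the 33 and had the widest interval.

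**Figure D3:**
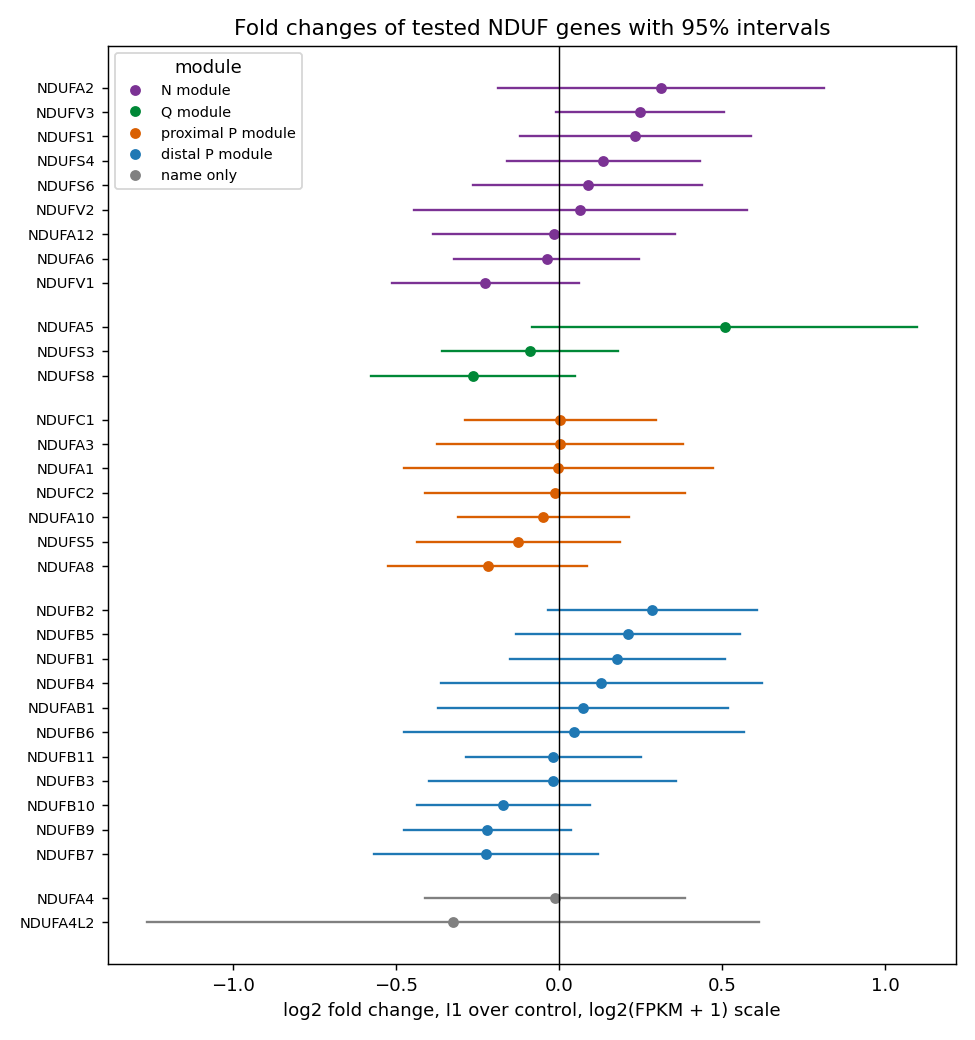
Log2 fold change of I1 over control on the log2(FPKM + 1) scale for tested NDUF genes, with 95% intervals, sorted within each module. All intervals drawn include 0, from NDUFA4L2 at -0.33 to NDUFA5 at 0.51.

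By module, the N module had a median log2 fold change of 0.09, with 6 of 9 tested genes above 0. The Q module, of which 4 genes were tested, had a median of -0.16. The proximal P module had -0.01 (5 of 7 below 0) and the distal P module 0.05 (5 of 11 below 0). Over all 33 genes the median was -0.01, with 15 above and 18 below 0. Over all tested genes the median was 0.03, with 54.5% above and 45.5% below 0. No module differed from the rest by a test, since none was made on so few genes. The N and distal P medians changed sign with a correction for GC content, given further below.

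The summed level of the 39 genes was 795, 994 and 893 FPKM in the I1 libraries and 894, 1010 and 905 FPKM in the control libraries. The means were 894 ± 99.4 FPKM with I1 and 937 ± 64.2 FPKM with control (SD, n = 3 each), a difference smaller than the SD of either group. Within the same-numbered pairs the sum was lower with I1 in 3 of 3, with log2 ratios of -0.17, -0.0242 and -0.0194. An exact two-sided sign-flip permutation test over the pairs gave p = 0.25. That is the smallest p that 3 pairs allow, so the test cannot decide whether the sum differed. As a share of all FPKM the sum was 0.327% with I1 and 0.330% with control, lower with I1 in 2 of 3 pairs.

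The spread among the libraries was shared by many of these genes. Of the 33 genes, 11 had their lowest value in I1 replicate 1 and 10 in control replicate 1, while 13 had their highest in I1 replicate 2 and 9 in control replicate 2. The median deviation from the gene mean was -0.15, 0.16 and -0.01 on the log2 scale in I1 replicates 1, 2 and 3 and -0.04, 0.10 and -0.01 in control replicates 1, 2 and 3. In replicates 1 and 2 the medians of both groups leaned the same way, while replicate 3 was at -0.01 in both. For replicate 1 this held in the N, proximal P and distal P modules. In the Q module I1 replicate 1 was at -0.07 and control replicate 1 at 0.10. Differences within same-numbered pairs were higher with I1 in 3 of 3 pairs for 6 of the 33 genes (18.2%, against 32.1% of all tested genes). They were lower in 3 of 3 for 9 genes (27.3%, against 25.8%).

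**Figure D4:**
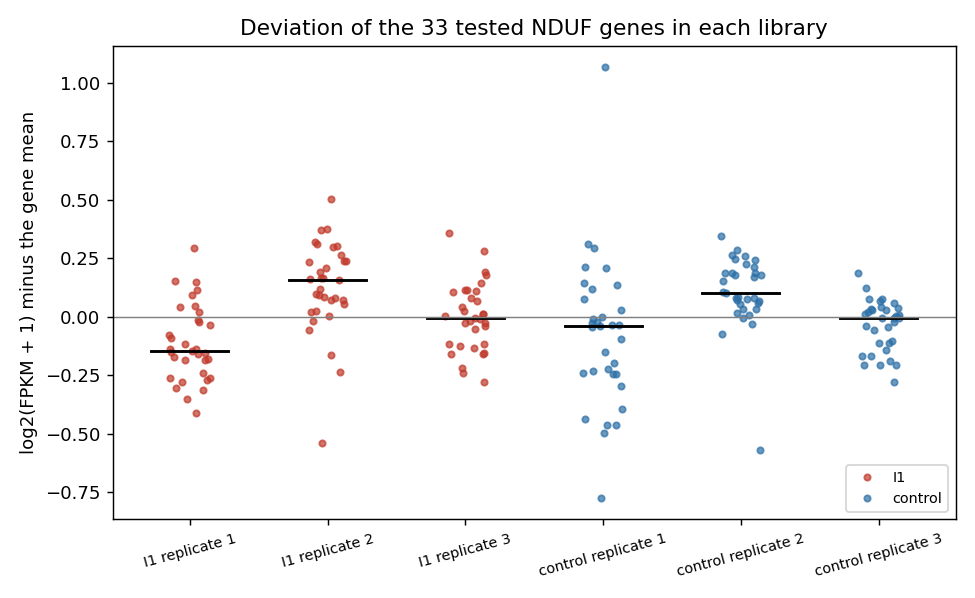
Deviation of each of the 33 tested genes from its own mean over the 6 libraries, in log2(FPKM + 1) units, with 1 dot per gene, I1 libraries in red left of control libraries in blue, and bars at the median. Replicate 1 of each group has a median below 0 and replicate 2 a median above 0, at -0.15 and 0.16 with I1 and at -0.04 and 0.10 with control.

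With the replicate number as a block, 0 of the 33 genes passed the adjusted threshold, beside 0.0504% of all tested genes higher and 0% lower. At an unadjusted p under 0.05 this fit had 4 genes higher (NDUFA5, NDUFA2, NDUFV3 and NDUFB2), 12.1% against 17.1% of all tested genes. It had 5 lower, among them NDUFA8, NDUFV1, NDUFS8 and NDUFB9, 15.2% against 9.96% of all tested genes. NDUFA8, a proximal P-module subunit whose promoter letters are printed above, had 38.7, 46.3 and 37.6 FPKM with I1 and 46.4, 52.8 and 43.8 FPKM with control, lower in 3 of 3 pairs, though the groups overlapped.

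The fold changes followed the base composition of the transcripts. The GC content of the longest transcript ran from 35.0% in NDUFA5 to 65.0% in NDUFB7, and across the 33 genes its Spearman rho with the log2 fold change was -0.62. Over 11899 tested genes the rho was -0.75. Both are descriptions across genes that share their libraries. The 2 ends of this range are shown as coding bases 151 to 300, with G and C in capitals: NDUFA5 (ENST00000355749, gene at chr7:123536997-123558255, minus strand) has 38.7% G and C in this stretch and NDUFB7 (ENST00000215565, gene at chr19:14566078-14572062, minus strand) has 62.7%. Sequences and positions are from GENCODE release 29 on hg38.
NDUFA5: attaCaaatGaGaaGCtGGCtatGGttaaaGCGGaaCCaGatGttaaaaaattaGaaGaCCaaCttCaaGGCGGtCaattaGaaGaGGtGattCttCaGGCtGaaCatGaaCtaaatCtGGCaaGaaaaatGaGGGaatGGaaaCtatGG
NDUFB7: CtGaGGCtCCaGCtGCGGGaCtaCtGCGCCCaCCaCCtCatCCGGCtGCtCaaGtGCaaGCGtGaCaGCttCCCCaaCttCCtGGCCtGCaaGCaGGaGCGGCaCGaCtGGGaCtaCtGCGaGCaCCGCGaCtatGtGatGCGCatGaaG

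The 13 tested genes with at least 50% GC had a median log2 fold change of -0.17, with 10 below 0, and the 20 with less had 0.06, with 12 above 0. This split depends on the transcript chosen. In the transcript with the longest coding sequence NDUFB2 (55.8%), NDUFV3 (53.4%), NDUFC1 (53.5%), NDUFAB1 (50.2%) and NDUFA10 (51.2%) are GC-rich too. Of these, NDUFA10 was below 0 and the rest above. The split and the correction below were not tried with that transcript. All tested genes in the bin from 35 to 40% GC, where NDUFA5 lies, had a median of 0.35, and those from 60 to 65%, where NDUFB7 lies at -0.22, a median of -0.20. Control replicate 1 moved with GC as well: its difference from the other controls had a rho with GC of 0.62 over the 33 genes. Without that library the rho of GC with the fold change was -0.29 over the genes of complex I and -0.56 over all tested genes.

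After each library was corrected for its own trend with GC, 12 of the 33 genes were above 0 and 21 below, against 49.6% and 50.4% of all tested genes. The median of the 13 GC-rich genes was then 0.00 and that of the 20 others -0.09. By module the medians were -0.05 in the N module, -0.04 in the Q module, -0.10 in the proximal and -0.08 in the distal P module. Across the 33 genes the Spearman rho of GC with the fold change was 0.31 after the correction, against -0.62 before it. The relation in these genes thus changed sign and was not removed. NDUFA5 was at 0.09 after the correction, against 0.51 before it, and NDUFB7 at 0.00, against -0.22 before it. NDUFV3 was at 0.22, against 0.25 before the correction, and NDUFB9 at -0.32, against -0.22 before it. The adjusted p of the 33 genes was 0.947 or above. The part of base composition in the differences of single genes was not tested beyond this correction.

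**Figure D5:**
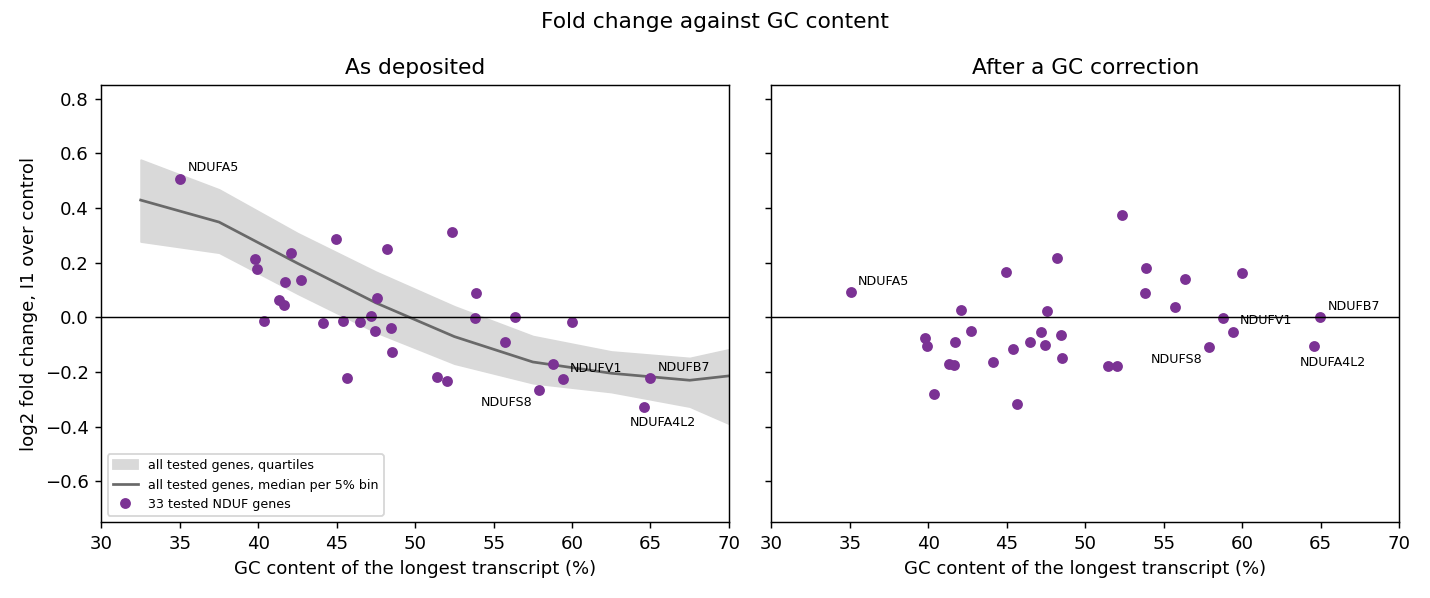
Log2 fold change of I1 over control against the GC content of the longest transcript, for the values as deposited (left) and after a GC correction in each library (right), with 1 purple dot per tested gene. The grey line and band are the median and quartiles of all tested genes per 5% of GC, and the dots run down with them on the left, from NDUFA5 at 0.51 to NDUFB7 at -0.22.

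Of the other genes of the pathway, 0 were called in each list by limma. At an unadjusted p under 0.05, 1 nuclear gene of complexes II to V was higher and 1 lower, 1 regulator of mitochondrial gene expression was higher and 1 lower, and 2 shuttle genes were lower. These lists held 40, 11 and 11 tested genes, and over all tested genes 6.8% were higher and 2.77% lower at that level. Of the 19 complex I assembly factors, 8 were above and 11 below 0, with a median log2 fold change of -0.07. After the GC correction 12 were below 0, with a median of -0.07. TMEM126B, which helps to build the proximal membrane arm, averaged 10.3 ± 1.42 FPKM with I1 and 7.83 ± 1.58 FPKM with control, and NDUFAF2, an assembly factor bound to late intermediates, 20.5 ± 3.17 FPKM with I1 and 15.8 ± 2.49 FPKM with control (SD, n = 3 each). The lowest fold changes were those of TMEM186 at -0.26 and DMAC1 at -0.21. The adjusted p of TMEM126B and NDUFAF2 was 0.467.

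The 7 subunits encoded in mitochondrial DNA were far higher than the nuclear ones, with a summed level of 12923 ± 3398 FPKM with I1 and 13642 ± 1891 FPKM with control (SD, n = 3 each). Their median log2 fold change was -0.12, with MT-ND5 at -0.32 and MT-ND1 at -0.26 at the low end and MT-ND2 at 0.18 and MT-ND3 at 0.10 at the high end. After the GC correction their median was -0.30, with 6 of the 7 below 0. The 40 tested nuclear subunits of complexes II to V had a median of -0.05, with 25 below 0. With the GC correction their median was -0.14, with 32 below 0, where 50.4% of all tested genes were below 0. In complex V, ATP5F1D, a subunit of the ATP synthase stalk, averaged 29.4 ± 2.15 FPKM with I1 and 40.9 ± 8.68 FPKM with control, and in complex II the membrane anchor SDHD 9.46 ± 2.03 FPKM with I1 and 5.97 ± 2.58 FPKM with control. Their log2 fold changes of -0.44 and 0.64 did not pass, each at an adjusted p of 0.467.

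Among 11 tested regulators of mitochondrial gene expression the median log2 fold change was 0.12. After the GC correction it was 0.00, with 5 below 0. TFAM, the factor that packs mitochondrial DNA, averaged 21.7 ± 2.71 FPKM with I1 and 13.8 ± 5.83 FPKM with control, and GABPA, an ETS factor, 8.59 ± 1.33 FPKM with I1 and 6.17 ± 2.24 FPKM with control. The nuclear receptor ESRRA averaged 17.3 ± 2.02 FPKM with I1 and 24.2 ± 6.41 FPKM with control, and POLRMT, the mitochondrial RNA polymerase, 19.4 ± 2.38 FPKM with I1 and 24.1 ± 4.32 FPKM with control. None passed, with an adjusted p of 0.467 in each. Of 11 tested genes that move reducing equivalents of NADH into mitochondria or pass electrons to ubiquinone by other routes, 8 were below 0, among them GOT1 at -0.35 and MDH2 at -0.30, both enzymes of the malate-aspartate shuttle. GPD2, the mitochondrial glycerol phosphate dehydrogenase, was at 0.27 and ETFDH, which brings electrons from fatty acid oxidation, at 0.18. After the GC correction 10 of these 11 genes were below 0.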

How the data were processed

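RNA of 6 Kasumi-1 samples was sequenced, 3 with I1 and 3 with control. Per the labels' protocols, RNA was taken with Trizol and libraries were made with the TruSeq Stranded mRNA kit. The build was hg38 and the tools HISAT2, HTSeq, Cufflinks and Trimmomatic, per the submitters' processing notes. The sources used here do not give versions, annotation or use of strand. The authors deposited FPKM values for 29810 genes, and all 6 columns were used. Its file is named for cell lines and an agent other than those of the labels, while the 6 columns carry the titles of these samples.

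Identifiers were matched to GENCODE release 29 (29703 matched), which gave symbols, exon lengths, overlaps and GC content. FPKM times length gave whole reads for 95.9% of genes (tolerance 0.05 reads), and so the library totals. Because FPKM sets each gene against its library total, abundant genes can shift the rest. limma 3.58.1 with an intensity trend in R 4.3.3 was fitted on log2(FPKM + 1), which understates fold changes of low genes. A count test was not run. No label says what the numbers in the titles mark. Libraries with the same number deviated together from their group means (correlations 0.476, 0.457 and 0.412), and were taken as pairs. The block fits and the comparisons within pairs thus rest on a pairing seen in these same data, and give no separate support for it.

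The genes and lists were chosen with earlier results of these data known. Named in full are the core subunits, the 4 lowest and 4 highest fold changes, the 3 highest and 3 lowest levels, genes whose groups do not overlap, and genes with the name only. A gene that this rule picks is not reported here. Of each other list, up to 2 genes at either end are named. Other settings were pseudocounts, filters, scalings, a GC correction, the block, protein-coding genes alone and leaving out each library.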

Additional observations from a re-analysis of the deposited data

How the results depend on the processing

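The absence of calls among the genes of complex I held in all of the settings tried. The replicate block on protein-coding genes alone, chosen after results were seen, gave 1 gene, NDUFA5, a limma adjusted p under 0.05, at 0.0438. With a log2 fold change of 0.51, NDUFA5 was short of the fold change of 2 that a call needed. Its adjusted p over all settings ran up to 0.973. The count of 4 called genes in the whole table was 0 with a pseudocount of 0.1 or 0.5, with no filter, with a mean of at least 5 FPKM, with the GC correction or with protein-coding genes alone. It was 2 with quantile normalization, 1 with the block and GC correction, and 0 to 2 with 1 library left out, where control replicate 2 alone left 2.

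The count of complex I genes at an unadjusted p under 0.05, 0 as reported, was 2 of 39 with no filter (5.13%, against 6.12% of all genes tested there), 1 of 33 with median-ratio scaling (3.03% against 10.1%), 4 with upper-quartile scaling (12.1% against 11.3%) and 3 with the GC correction (9.09% against 5.15%). On the pairing of same-numbered libraries, the replicate block gave 9 (27.3%, against 27.1% of all tested genes), 8 with the GC correction (24.2% against 16.1%) and 11 on protein-coding genes alone (33.3% against 33.8%). With 1 library left out the count was 0 to 2, where 3.76 to 17.7% of all genes tested were at that level. The median log2 fold change of -0.01 was -0.12 with upper-quartile scaling, which lowered the median of all genes as well, by 0.10, and -0.10 to 0.12 with 1 library left out, highest without I1 replicate 1. The log2 ratio of the summed levels, -0.07, was -0.19 with upper-quartile scaling and -0.15 to 0.01 with 1 library left out.

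Of the 33 genes, 14 had the same sign in every setting and 19 did not. With the GC correction, with or without the block, the signs reversed in NDUFC1 (-0.0551), NDUFS4 (-0.0507), NDUFS3 (0.0366), NDUFA1 (0.0880), NDUFB11 (0.16), NDUFB1 (-0.10), NDUFV2 (-0.17), NDUFB7 (0.00136), NDUFB6 (-0.18), NDUFB4 (-0.0904) and NDUFB5 (-0.0755). With median-ratio scaling they reversed in NDUFC1 (-0.0542), NDUFA3 (-0.0516) and NDUFB6 (-0.0108). With upper-quartile scaling they reversed in NDUFC1 (-0.11), NDUFS6 (-0.0286), NDUFA3 (-0.10), NDUFB6 (-0.0658) and NDUFAB1 (-0.0424). With quantile normalization they reversed in NDUFC1 (-0.0290), NDUFA1 (0.0307), NDUFB11 (0.0300), NDUFA3 (-0.0711) and NDUFV2 (-0.0723). None of these fold changes was past the threshold, and the cause was not tested.

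With 1 library left out, the fold change took both signs in NDUFA1 (-0.15 to 0.20), NDUFA12 (-0.16 to 0.0731), NDUFA3 (-0.12 to 0.16), NDUFA4 (-0.14 to 0.12), NDUFA6 (-0.11 to 0.0245), NDUFAB1 (-0.0946 to 0.21), NDUFB11 (-0.0719 to 0.0537), NDUFB3 (-0.12 to 0.13), NDUFB4 (-0.0869 to 0.30), NDUFB6 (-0.16 to 0.23), NDUFC1 (-0.0788 to 0.0904), NDUFC2 (-0.12 to 0.12), NDUFS6 (-0.0507 to 0.19) and NDUFV2 (-0.15 to 0.17).

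Reads limit the low genes: NDUFA7 had 7 to 13 reads per library, so its level is known only roughly. The printed 95% intervals rest on the scatter between libraries. With 3 libraries a group, differences smaller than the printed intervals could not be resolved.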

Other observations

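Pseudogenes named after the subunits are common in the genome, and 21 of them, copies of 12 of the 39 genes, were in the table. None reached a mean of 1 FPKM over the 6 libraries, and the highest value in a single library was 2.03 FPKM. The highest mean was that of NDUFB10P1, with 0.234, 1.59 and 0.231 FPKM in the I1 libraries and 0.949, 0.554 and 1.52 FPKM in the control libraries. Its parent NDUFB10 had 39.5, 45.8 and 39.5 FPKM with I1 and 48.9, 46.4 and 45.3 FPKM with control, so the copy stood far below it in every library. NDUFA5P11, a copy of NDUFA5, had 0.178, 1.55 and 0.877 FPKM with I1 and 0.160, 1.35 and 0.824 FPKM with control, lowest in replicate 1 of both groups, as was NDUFA5 itself.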
